A study of Mus musculus with 8 samples.

Results

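The genes described here carry peptides to T cells. They are 10 of the 47643 named genes of the RNA-seq table, chosen by symbol: the class II chains H2-Aa, H2-Ab1 and H2-Eb1, the invariant chain Cd74, the class II regulator Ciita, the peptide exchange factors H2-DMa and H2-DMb1, the class I heavy chains H2-K1 and H2-D1, and the class I light chain B2m. Of the 10160 deposited m6A peaks, 10 had their summit within one of these genes. Cultured bone marrow mesenchymal stem cells (MSCs) of C57BL/6 mice supplied both experiments, and all had spent 2 days in osteogenic medium with 100 nM dexamethasone, 50 µg/ml ascorbic acid and 5 mM β-glycerophosphate. RNA-seq compared 2 libraries labelled wild type (WT) with 2 of genotype Prx1-cre;Mettl3fl/fl (cKO), in which Cre under the limb mesenchyme promoter Prx1 removes exons 2 and 3 of the floxed m6A methyltransferase gene Mettl3. The study's text describes the controls as Mettl3fl/fl littermates. MeRIP-Seq, which sequences RNA fragments recovered with an antibody against m6A, used 2 immunoprecipitates and 2 inputs of wild type MSCs. Age and sex are not in the labels, and MSCs came from flushed marrow of long bones, without a sort in the description. Nothing in the labels says that libraries of a group came from separate mice, so p-values measure the spread between these libraries.

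Class I molecules are made by nearly all nucleated cells: a heavy chain such as H2-K1 or H2-D1 pairs with B2m and takes up peptides cut by the proteasome. Class II molecules pair an alpha with a beta chain, are escorted by Cd74 to endosomes, and exchange a Cd74 fragment for antigen peptides with the help of H2-DM. They are made mainly by dendritic cells, B cells and macrophages, and in other cells after interferon-gamma, through the coactivator Ciita. C57BL/6 mice lack a working E alpha chain gene, so that H2-Eb1 transcripts there do not lead to a surface E molecule. The class I genes have a related coactivator, Nlrc5.

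Both families share an upstream arrangement called the S-X-Y module, on which RFX, CREB and NF-Y assemble. It is printed because 6 of the 10 members held letters of it in the windows searched. RefSeq gave a start site window for 7 of the 10 genes (GRCm38.p6, 250 bases before the start site searched), and 6 of the 7 held TGANG followed, 10 to 30 bases on, by ATTGG, both on the gene's strand. The letters and spacing were chosen after the sequences were seen. The same pair stood in 2.19% of all 32851 windows, and ATTGG on either strand in 33.8%. In the sequences below, capitals mark the pair.
H2-Aa (GRCm38.p6 chr17:34287859-34287905, minus strand): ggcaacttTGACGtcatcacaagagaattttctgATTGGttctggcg
H2-Eb1 (GRCm38.p6 chr17:34305773-34305820, plus strand): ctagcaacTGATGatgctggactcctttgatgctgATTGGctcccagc
H2-DMb1 (GRCm38.p6 chr17:34153094-34153142, plus strand): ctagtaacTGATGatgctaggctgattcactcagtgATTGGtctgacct
H2-K1 (GRCm38.p6 chr17:34000351-34000396, minus strand): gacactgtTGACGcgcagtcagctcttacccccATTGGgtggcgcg
H2-D1 (GRCm38.p6 chr17:35262982-35263030, plus strand): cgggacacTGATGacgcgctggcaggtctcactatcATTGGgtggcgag
B2m (GRCm38.p6 chr2:122147601-122147646, plus strand): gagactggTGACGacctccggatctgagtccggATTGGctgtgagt
The starts of the 2 motifs lay 25 to 28 bases apart. In H2-DMa, neither of 2 windows held the pair, which says only that these letters are not there.

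The libraries held 23948219 to 34069228 counts on named genes. The WT libraries differed more from each other (biological coefficient of variation 12.4%) than the cKO libraries did (1.90%), and the cKO pair exceeded sampling noise only slightly, with a chi-square 1.82 times its expectation against 32.6 for WT. Of 15327 genes tested with edgeR's quasi-likelihood test, 4677 passed a Benjamini-Hochberg adjusted p of 0.05, which is 30.5%: 2577 were lower in cKO (16.8%) and 2100 higher (13.7%). With the cKO libraries summed to 1 sample, 2012 genes passed. Counts of Mettl3 over its whole gene were 17.6, 16.9, 17.5 and 16.3 CPM (counts scaled to the library's size) in WT 1, WT 2, cKO 1 and cKO 2, a log2 fold change of −0.03 (SE 0.093). This value does not measure the deleted exons and so checks no label. Markers of macrophages were abundant in all 4 libraries of these cultures labelled MSCs: Lyz2 alone, the lysozyme of myeloid cells, stood at 14418 to 21709 TPM, the deposited level per length of transcript.

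Of the 10 genes, 8 had enough counts to be tested, 1 fell in cKO and none rose, against 16.8% lower and 13.7% higher over all genes tested. The one that fell was H2-Ab1, the beta chain of the class II A molecule. Their median log2 fold change was −0.22, beside −0.0038 over all genes tested. In order of level, B2m ranked 47 of 47643 by mean TPM, H2-D1 143 and H2-K1 217, while H2-DMb1 ranked 5324, H2-DMa 7028 and H2-Ab1 8822. H2-Eb1 (12477), Cd74 (12766), H2-Aa (15264) and Ciita (19921) came last. Between H2-Eb1 and Cd74, the ranges of the 4 libraries overlapped, and so did those of H2-DMa and H2-Ab1 in WT, where the levels were 11.6 and 15.0 TPM for H2-DMa.

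**Figure D1:**
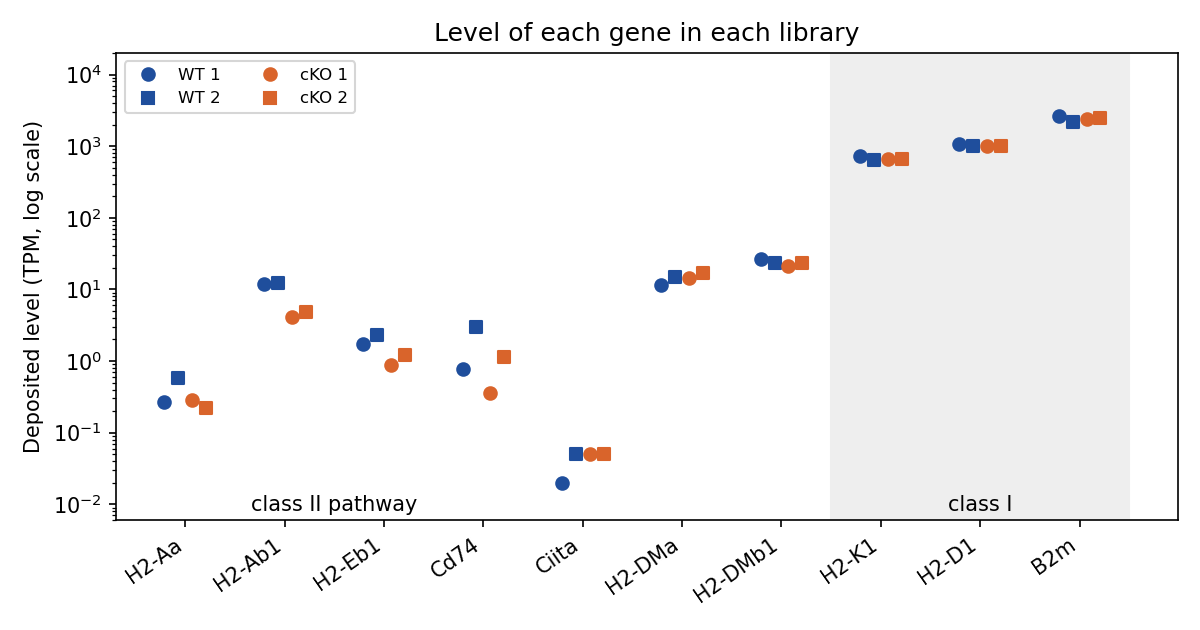
Deposited level of each gene (TPM, log axis) in WT 1, WT 2, cKO 1 and cKO 2, 1 point a library, with class I genes on grey. H2-Ab1 stands at 11.8 and 12.4 TPM in WT and at 4.10 and 4.91 TPM in cKO, while B2m lies between 2210 and 2669 TPM in all libraries.

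H2-Ab1 (ENSMUSG00000073421, GRCm38 chr17:34263209-34269418, plus strand) had 287 and 262 counts in WT and 68 and 107 in cKO. Its level was 11.8 and 12.4 TPM in WT and 4.10 and 4.91 TPM in cKO. Both cKO libraries lay well below both WT libraries. The log2 fold change was −1.52 (SE 0.16, 95% interval −1.90 to −1.13, quasi-likelihood test of edgeR, Benjamini-Hochberg adjusted p 0.00111), a level 2.86-fold higher in WT. It was the only member past the threshold. With the cKO libraries summed to 1 sample, its adjusted p in the edgeR test was 0.0024. Over 12 other fits its adjusted p ran from 7.59e-22 to 0.0966, and only the ordinary linear model on log2(TPM + 1) did not pass it. The lowest of these came from the fit without WT 1, whose spread rests on the cKO pair alone, and 5 of the 12 fits had 1 sample in a group. In bulk RNA, fewer cells of a type and less RNA per cell cannot be told apart.

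Its partner H2-Aa, the alpha chain of the same molecule (ENSMUSG00000036594, chr17:34282744-34287827, minus strand), was close to the lower limit of the data, with 6 and 11 counts in WT and 2 and 2 in cKO. It did not pass the filter on low counts. Summed over libraries and scaled by library size, the counts gave a ratio of 3.84 in WT over cKO, with an exact 95% interval of 1.25 to 15.7 that covers counting error only. The deposited levels were 0.27 and 0.57 TPM in WT and 0.29 and 0.22 TPM in cKO, so that the groups overlapped on that scale and not in CPM. H2-Ab1 stood 14.1 to 43.7 times above H2-Aa in TPM in the 4 libraries.

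H2-Eb1, the beta chain of the class II E molecule (ENSMUSG00000060586, chr17:34305877-34316199), had 41 and 47 counts in WT and 14 and 26 in cKO. Both cKO levels, 0.87 and 1.23 TPM, were below both WT levels, 1.74 and 2.28 TPM. The log2 fold change of −1.02 (SE 0.35, 95% interval −1.87 to −0.16) did not pass the edgeR test after Benjamini-Hochberg adjustment (adjusted p 0.0746). Cd74, the invariant chain (ENSMUSG00000024610, chromosome 18), had 20 and 64 counts in WT and 6 and 27 in cKO. The first library of each group was low and the groups overlapped, and levels ran from 0.36 to 2.94 TPM. Its log2 fold change was −1.29 with a 95% interval of −3.14 to 0.55 (edgeR, Benjamini-Hochberg adjusted p 0.250). Without WT 2 the log2 fold change of Cd74 was −0.04, and without WT 1 it was −1.95. Cd74 is typically among the most abundant transcripts of antigen presenting cells, and in these libraries it was below H2-Ab1 in TPM in each of the 4.

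Ciita, the coactivator that switches class II genes on (ENSMUSG00000022504, chr16:10488178-10527564), had 3 and 6 counts in WT and 4 and 6 in cKO. That is 0.02 to 0.05 TPM, and it was not tested. The ratio of cKO over WT was 1.23 with an exact 95% interval of 0.449 to 3.42 for counting error, so a moderate change in either direction was not detectable at this depth. Dexi, on the opposite strand, overlaps Ciita, and counting by strand is not given in the sources used here, so reads of the pair cannot be separated.

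Neither chain of the exchange factor H2-DM passed the test. H2-DMa (ENSMUSG00000037649, chr17:34135182-34139101) had 294 and 293 counts in WT and 209 and 327 in cKO, which after scaling was 8.70, 10.4, 8.63 and 10.3 CPM. The groups overlapped, and the log2 fold change was −0.01 with a 95% interval of −0.36 to 0.35 (edgeR, Benjamini-Hochberg adjusted p 0.982). On the TPM scale the sign turned, to 0.24 on log2(TPM + 0.1), where the median of all tested genes was itself shifted by 0.10. H2-DMb1 (ENSMUSG00000079547, chr17:34153072-34160230) stood at 22.98 and 21.1 CPM in WT and at 17.4 and 19.0 CPM in cKO. Its log2 fold change of −0.28 (SE 0.096) did not pass (edgeR, Benjamini-Hochberg adjusted p 0.0745). H2-DMb2 is a near copy with 19 to 33 counts a library, and the authors' counting may have split reads between them.

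**Figure D2:**
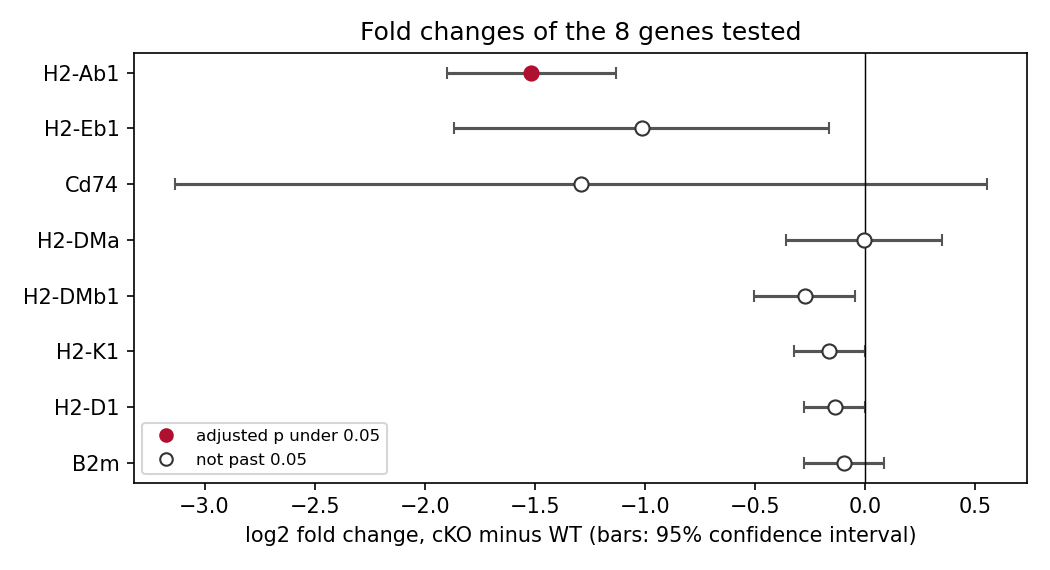
log2 fold change, cKO minus WT, of the 8 genes tested by edgeR with their 95% confidence intervals (bars); filled points passed an adjusted p of 0.05. H2-Ab1 alone is filled, at −1.52, and Cd74 has the widest interval, −3.14 to 0.55.

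The class I genes were abundant, and their groups lay close together. H2-K1 (ENSMUSG00000061232, chr17:33996017-34000333, minus strand) stood at 734 and 648 TPM in WT and at 653 and 672 TPM in cKO. H2-D1 (ENSMUSG00000073411, chr17:35262730-35267499) stood at 1065 and 1001 TPM in WT and at 995 and 1010 TPM in cKO. B2m (ENSMUSG00000060802, chr2:122147686-122153083) stood at 2669 and 2210 TPM in WT and at 2431 and 2453 TPM in cKO. On the TPM scale the groups overlapped for all 3. In CPM, both cKO libraries were below both WT libraries for H2-K1 (734 and 669 against 618 and 634 CPM) and for H2-D1 (1453 and 1387 against 1275 and 1302 CPM).

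None of the 3 passed the edgeR test. The log2 fold changes were −0.16 for H2-K1 (95% interval −0.33 to −0.0033, Benjamini-Hochberg adjusted p 0.113), −0.14 for H2-D1 (−0.28 to −0.00075, adjusted p 0.117) and −0.10 for B2m (−0.28 to 0.085, adjusted p 0.375). B2m changed sign on the TPM scale, to 0.0078 on log2(TPM + 0.1), and without WT 1. On that log2(TPM + 0.1) scale the median of all tested genes was itself shifted by 0.10. H2-K1 and H2-D1 are alike in sequence, so reads may have been split between them. Over the libraries the 3 genes took 0.297% to 0.336% of all counts, with WT 1 highest. Within a library their proportions were steady: H2-D1 was 1.45 to 1.54 times H2-K1 in TPM, and B2m was 1.34 to 1.48 times the sum of both heavy chains.

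Other genes of antigen presentation were followed in 7 lists with 67 genes, of which 56 were tested. Of these 10 were higher in cKO and 13 lower, 17.9% and 23.2% of those tested, against 13.7% and 16.8% over all genes, with a median log2 fold change of −0.14. Counts depended on the fit: with the cKO libraries summed to 1 sample 3 were higher and 5 lower.

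Counts within single lists, each of 13 or fewer genes tested, are to be read beside 13.7% higher and 16.8% lower over all genes. Among the class I heavy chains outside the members, 4 of 13 tested fell and 2 rose. H2-Q7, a nonclassical heavy chain of the Qa-2 family, had 460 and 422 counts in WT and 161 and 195 in cKO (log2 fold change −1.16, edgeR, Benjamini-Hochberg adjusted p 0.000994). H2-Q6 of the same family had 219 and 213 counts in WT and 67 and 66 in cKO (−1.54, edgeR, Benjamini-Hochberg adjusted p 0.00267). Both fell, and since the H2-Q genes are close copies, reads may have been split between them. H2-T23, which presents to natural killer cell receptors, stood at 124 to 129 TPM in WT and 123 to 124 TPM in cKO, and did not pass. H2-T22 stood at 38.8 to 42.9 TPM and did not pass. Fcgrt, the receptor that rescues IgG, rose slightly, from 113 and 100 TPM to 134 and 134 TPM (log2 fold change 0.23). H2-Q4 (log2 fold change −0.39) and Cd1d1 (−0.42), which presents lipids, also fell, and Mr1 (0.45), which presents vitamin metabolites, rose.

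In the list of class I peptide loading, 2 of 9 fell and none rose. Calr, the chaperone calreticulin, went from 725 and 634 TPM to 507 and 509 TPM (log2 fold change −0.53, edgeR, Benjamini-Hochberg adjusted p 0.00225). The chaperones Pdia3 (log2 fold change −0.19) and Canx (0.02) did not pass. Tapbp, the bridge between heavy chain and peptide transporter, also fell (−0.23). Of the 5 immunoproteasome genes, Psme2 fell (−0.39), a proteasome activator subunit. Psme1 (−0.16) and Psmb10 (−0.06) did not pass.

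Of the other class II chains and lysosomal enzymes, 1 of 4 tested rose. Lgmn, the protease legumain, stood at 885 and 737 TPM in WT and at 1058 and 1072 TPM in cKO (log2 fold change 0.30). Ctss, the cathepsin that degrades Cd74, stood at 1961 and 1921 TPM in WT and at 2275 and 2270 TPM in cKO, and did not pass (edgeR, Benjamini-Hochberg adjusted p 0.127). Ifi30, a thiol reductase, did not pass either (−0.15). H2-Eb2 was listed at 0 in every library, but its deposited position spans fewer bases than its gene length, so this may not be absence.

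**Figure D3:**
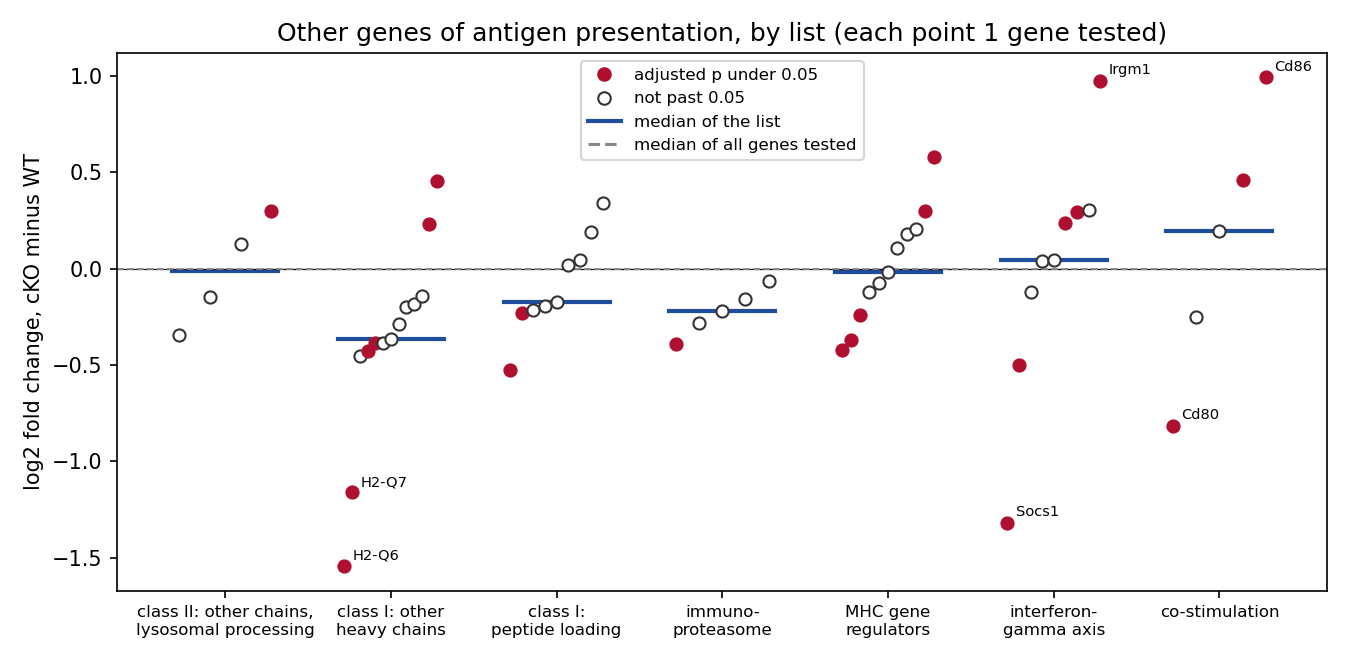
log2 fold changes, cKO minus WT, of the genes tested in 7 lists of antigen presentation, 1 point a gene, filled where the adjusted p was under 0.05; bars are list medians, the dashed line the median of all genes tested. H2-Q6, at −1.54, is the lowest point and Cd86, at 0.99, the highest.

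Of 11 regulators of MHC genes, 2 rose and 3 fell. Irf8, a myeloid interferon regulatory factor, went from 43.9 and 43.1 TPM to 68.2 and 68.3 TPM (log2 fold change 0.58, edgeR, Benjamini-Hochberg adjusted p 0.00191). Of the NF-Y subunits, Nfya fell (−0.24), while Nfyb (−0.02) and Nfyc (−0.07) did not pass. Creb1, which encodes CREB, rose (0.30). Nlrc5, the class I coactivator, chosen after its values were seen, fell from 10.9 TPM in both WT libraries to 7.96 and 8.10 TPM (log2 fold change −0.42). The RFX subunits Rfx5, Rfxank and Rfxap did not pass. In the interferon-gamma list, 3 rose and 2 fell of 9 tested, and Ifng itself was listed at 0 in every library. The deposited position of Ifng spans fewer bases than its gene length, so this 0 may not be absence. Socs1, the feedback inhibitor, had 126 and 153 counts in WT and 39 and 64 in cKO (log2 fold change −1.32, edgeR, Benjamini-Hochberg adjusted p 0.0124). The receptor chains Ifngr1 (0.24) and Ifngr2 (0.30) rose and Jak1 (0.04) did not pass. Irgm1, an immunity-related GTPase chosen after its values were seen, rose from 27.3 and 22.97 TPM to 53.2 and 54.8 TPM. In the same list Gbp2 fell (log2 fold change −0.50), and Igtp (−0.12) and Gbp3 (0.31) did not pass.

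Of 5 co-stimulatory genes tested, 2 rose and 1 fell. Cd80, a ligand of CD28 on T cells, fell from 16.8 and 15.5 TPM to 10.0 and 9.69 TPM (log2 fold change −0.81, edgeR, Benjamini-Hochberg adjusted p 0.00182). Cd86, the other ligand of CD28 and named after its values were seen, rose from 2.81 and 2.51 TPM to 5.98 and 5.61 TPM (0.99). Icosl rose (0.46) and Cd274, the ligand of PD-1, did not pass (0.20).

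The levels of class II genes were read beside markers of the cells that make them. The 10 macrophage markers summed to 25162 and 29683 TPM in WT and to 35098 and 35408 TPM in cKO. Lyz2 made up most of that sum and did not pass. Without it the other 9 summed to 10744 and 9566 TPM in WT and 13533 and 13698 TPM in cKO. Most of this remainder was C1qa, C1qb and C1qc. On log2(TPM + 0.1) the median log2 fold change of all tested genes was itself 0.097. Of the 10, 3 rose (C1qa, C1qb and C1qc) and none fell, against 13.7% higher and 16.8% lower over all genes tested. Csf1r (log2 fold change 0.01), Itgam (−0.01), Cd14 (−0.04) and Cd68 (0.07) did not pass. Mrc1 (0.58) and Adgre1 (0.14) did not pass either, though both cKO libraries were above both WT libraries in CPM. Of the pan-haematopoietic markers, 2 of 4 rose (Ptprc and Laptm5), while Spi1, at 290 and 329 TPM in WT and 346 and 337 TPM in cKO, did not pass. Dendritic markers were near 0, with a sum of 1.68 to 2.35 TPM over 7 genes in both groups; Itgax, Flt3 and Zbtb46 were tested and did not pass. The 6 B cell markers summed to 0.89 to 2.20 TPM, most of it Cd22. Of 5 T cell markers, Cd3e, Cd3d and Cd3g were listed at 0, and the sum was 0.08 to 0.37 TPM. The deposited positions of Cd3e and Cd3d span fewer bases than their gene lengths, so their 0 may not be absence.

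Neutrophil markers summed to 18.3 and 20.8 TPM in WT and to 5.92 and 3.87 TPM in cKO. S100a8 made up most of that sum, with 17.2 and 18.7 TPM in WT and 5.02 and 2.37 TPM in cKO. Of the 2 neutrophil markers tested, S100a8 fell (log2 fold change −2.43) and 1 did not pass. S100a9 and Mpo were listed at 0. Their deposited positions span fewer bases than their gene lengths, so this may not be absence. Endothelial markers summed to 1.23 and 1.33 TPM in WT and to 9.34 and 7.92 TPM in cKO, with Kdr and Emcn higher. Kdr and Emcn made up most of that sum, while Cdh5, at a log2 fold change of −1.16, did not pass and Pecam1 was too low to test. The 11 MSC markers summed to 1862 and 1734 TPM in WT and to 1411 and 1407 TPM in cKO. Col1a1, at 434 and 432 TPM in WT and 297 and 306 TPM in cKO, was a large part of that sum. So was Col1a2, at 569 and 505 TPM in WT and 277 and 282 TPM in cKO. Of the 11, 4 rose (Pdgfra, Pdgfrb, Prrx1 and Thy1) and 5 fell, among them Col1a1 and Col1a2. Over all genes tested, 13.7% were higher and 16.8% lower. The part of any of these cell populations in the fall of H2-Ab1 was not tested.

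**Figure D4:**
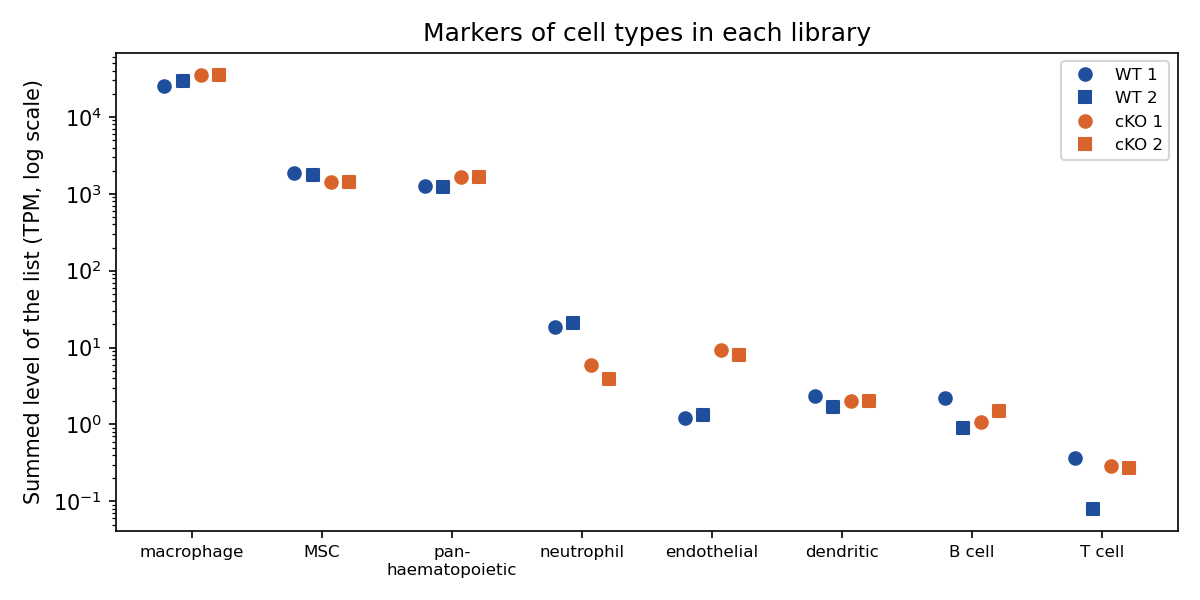
Summed level (TPM, log axis) of 8 lists of cell type markers in each library, 1 point a library. Macrophage markers stand at 25162 to 35408 TPM, above all other lists, and dendritic, B cell and T cell markers at or below 2.35 TPM.

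The genes closest in profile to the class II chains were looked for among all tested genes outside the lists, by the Euclidean distance of centred log2 CPM over the 4 libraries to the mean of H2-Ab1, H2-Eb1 and Cd74. The 5 nearest were Gm42528 (distance 0.14), Serinc2 (0.14), Cdh1 (0.17), Fam83g (0.18) and 6430573F11Rik (0.22). All lay at 1.42 CPM or below in each library, and their log2 fold changes ran from −1.61 to −1.39, none past the edgeR threshold (Benjamini-Hochberg adjusted p 0.0677 to 0.118). H2-Ab1 itself lay 0.64 from that mean, H2-Eb1 0.40 and Cd74 0.88, all farther than these 5 genes.

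In the m6A peak list, 4 of the 10 genes carried a peak: H2-D1 had 4, H2-K1 3, Ciita 2 and B2m 1. H2-Aa, H2-Ab1, H2-Eb1, Cd74, H2-DMa and H2-DMb1 carried none. Of genes with 10000 or more mean WT counts, the class of H2-K1, H2-D1 and B2m, 52.0% carried a peak. Of genes with 100 to 1000 counts, the class of H2-Ab1, H2-DMa and H2-DMb1, 42.3% did. Of genes with 10 to 100 counts, the class of H2-Eb1 and Cd74, 16.9% did. Of genes with 1 to 10 counts, the class of Ciita and H2-Aa, 4.84% did. The list gives no values per replicate, and the depth is unknown, so that a missing peak is not a missing m6A.

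Of the 10 peaks, 8 lay in coding sequence and 2 in a 3′UTR (GENCODE vM1 on mm9), and 2 summits fell within 200 nt of a stop codon. The 3′UTR summits were 100 nt past the stop codon of H2-K1 and 146 nt past that of H2-D1. The fold enrichment, the height over local background, ran from 1.71 to 3.96, so that all 10 stood below the median of 4.03 over all peaks. The 8 class I peaks had high pileups, 137 to 179 fragments at the summit against a median of 60. The highest fold enrichment on a class I gene was 3.27, on H2-D1, with a −log10 q of 30.3. The peak of B2m, in exon 2 of 4 (mm9 chr2:121976459-121976738), had a fold of 2.67 and lay within Patl2 on the opposite strand as well. Patl2 had 3 counts summed over the 4 RNA-seq libraries, against 25262 to 40387 in each library for B2m. The 2 peaks of Ciita, both in exon 10 of 19, had the highest folds (3.96 and 3.46). They had only 13 and 12 fragments at the summit and a −log10 q of only 3.49 and 2.44.

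**Figure D5:**
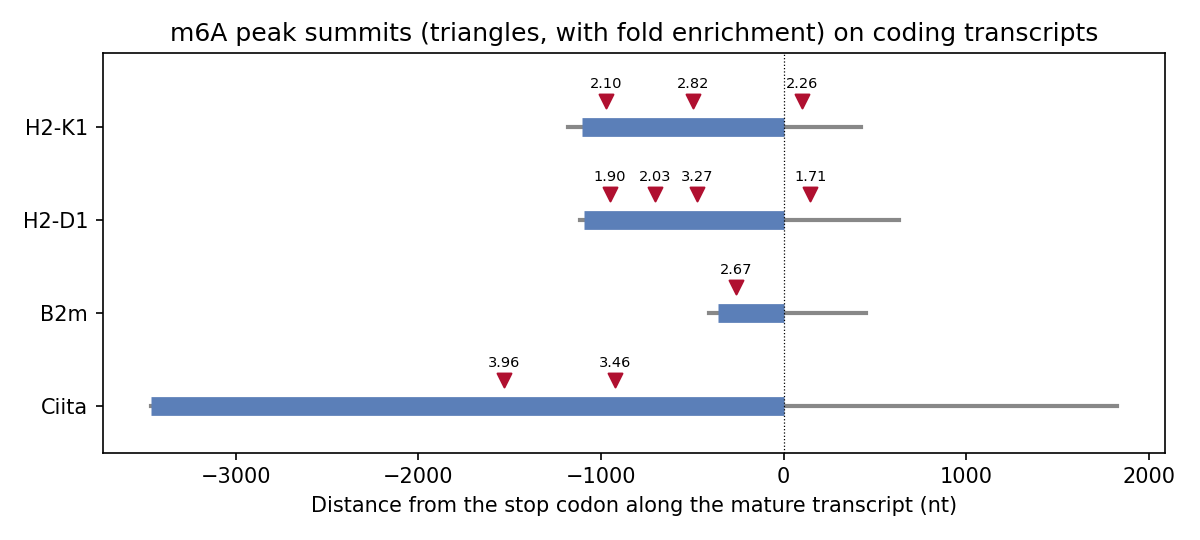
Summits of the 10 m6A peaks (triangles, with fold enrichment) on the coding transcript of each gene, in nt from the stop codon; blue is coding sequence and grey untranslated. H2-K1 summits lie at −973, −495 and 100 nt and H2-D1 summits at −952, −703, −476 and 146 nt, and those of Ciita are at −1533 and −925 nt.

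Sequence around the peaks is shown because m6A is laid down by the methyltransferase at motifs such as GGAC. On the gene's strand of the genome, introns included, 8 of the 10 peaks held GGAC. The peaks without it were the B2m peak and the middle peak of H2-K1. Of 5265 peaks of 200 to 350 bases within genes, 81.1% held it. The nearest GGAC lay within 18 nt of the summit in 5 peaks, each given below as 30 bases of mm9 on the gene's strand with GGAC in capitals.
H2-K1 3′UTR (chr17:34133287-34133316, minus strand): cctgtgagcctatGGACtcaatgtgaagaa
H2-K1 exon 2 (chr17:34136850-34136879, minus strand): aagtcggctacgtGGACgacacggagttcg
H2-D1 exon 2 (chr17:35400393-35400422, plus strand): ctgtcggctatgtGGACaacaaggagttcg
H2-D1 exon 3 (chr17:35400814-35400843, plus strand): gtgacttggggtcGGACtggcgcctcctcc
H2-D1 3′UTR (chr17:35403962-35403991, plus strand): gccctgcacaccaGGACcctatccctgcac
In the remaining 3 peaks with the motif, the nearest GGAC lay 59 and 68 nt from the summit in Ciita and 144 nt in the exon 4 peak of H2-D1. That H2-D1 peak was the class I peak with the highest fold enrichment. Its only GGAC lay outside the coding sequence and UTRs of the annotated coding transcripts, in an exon annotated as noncoding. The exon 2 sequences of H2-K1 and H2-D1 were identical at 25 of 30 positions. Reads from such stretches may be assigned to either gene, so that peaks at matching places in both may not be independent.

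Of the 67 genes of the 7 lists, 65 were in the mm9 annotation and 31 carried at least 1 peak, 40 peaks in all. Over all genes, the share with a peak was 42.3% at 100 to 1000 mean WT counts and 52.8% at 1000 to 10000. It was 16.9% at 10 to 100, 4.84% at 1 to 10 and 1.18% below 1. Peaks were on 9 of 11 regulators, among them Rfx5, Rfxap and Irf8 (3 peaks), and on 5 of 6 co-stimulatory genes. The interferon-gamma list had peaks on 6 of 12 genes, class I peptide loading on 5 of 9 and the other class II genes on 2 of 8. The other class I heavy chains had peaks on 3 of 16 genes and the immunoproteasome on 1 of 5. Of the other class II genes, 7 of 8 were in the annotation and only 4 had enough counts to be tested in RNA-seq. Of the other heavy chains, 15 of 16 were in the annotation and 13 were tested. Both lists thus hold genes of the lowest count classes, where few genes carry a peak. Cd40, in the co-stimulatory list, held the highest fold enrichment, 13.3.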

How the data were processed

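The RNA-seq data were 2 WT and 2 cKO libraries and the MeRIP-Seq data 2 immunoprecipitates and 2 inputs, grouped by the sample labels. The authors mapped RNA-seq reads with HISAT2 2.0.4 and deposited estimated counts per gene without normalization and TPM (headed FPKM, but summing to 1000000 in each library). The MeRIP peak list, on mm9 and in MACS2 layout, holds the pileup signal, the fold enrichment as a ratio, and −log10 of p-value and q-value, all as deposited by the authors. Whether its samples were pooled is not given in the sources used here. Gene positions are GRCm38.

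Of 47732 entries, 89 had no gene name and held 0.110% to 0.125% of the counts. They were left out. Estimated counts were rounded and low genes dropped with filterByExpr. TMM factors set the library sizes, and the two-sided quasi-likelihood test of edgeR 4.0.16, without a block, was adjusted by Benjamini-Hochberg over 15327 genes. Alternatives were a replicate block, no filter, median-of-ratios factors, DESeq2 1.42.0, limma 3.58.1 on log2(TPM + 0.1) and log2(TPM + 1), an ordinary linear model, and each library left out. The cKO sum was added after seeing the data. Untested genes were given ratios of summed counts with exact intervals. Intervals cover counting error only. Scripts were tested on simulated data.

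The members, gene lists and marker lists were chosen with earlier results of these data known. The genes named are the members, the 3 most abundant of each other list with any that passed and changed at least 2-fold, the 3 most abundant markers with those at 0, 5 genes nearest in profile, and Mettl3. Tapbp, H2-Q4, Cd1d1, Mr1, H2-Eb2, Nlrc5, Rfx5, Rfxank, Rfxap, Irgm1, Cd86, Cd40, Cdh5, Pecam1 and the remaining markers named were chosen after their values were seen. So were Nfyb, Nfyc, Creb1, Gbp2, Gbp3 and Igtp. Of the genes that this rule names, 2 are not reported here. Columns with the authors' own comparisons were not used. Sequences are from RefSeq (GRCm38.p6) and from mm9.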

Additional observations from a re-analysis of the deposited data

How the results depend on the processing

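H2-Ab1 kept its direction in all 12 alternatives and its threshold in 11 (adjusted p 7.59e-22 to 0.0966), except in the ordinary linear model (−1.25, adjusted p 0.0966). Leaving out each library in turn, its log2 fold change ran from −1.66 to −1.40, that of H2-Eb1 from −1.30 to −0.78, of Cd74 from −2.48 to −0.043, of H2-DMa from −0.14 to 0.13, of H2-DMb1 from −0.34 to −0.20, of H2-K1 from −0.23 to −0.089, of H2-D1 from −0.18 to −0.099, of B2m from −0.19 to 0.0066, of H2-Aa from −2.44 to −1.32 and of Ciita from −0.25 to 1.004. Without WT 1 the lone WT library is assumed to vary like the cKO pair, and H2-Eb1, Cd74, H2-DMb1, H2-K1 and H2-D1 passed there. Without WT 2, H2-DMb1, H2-K1, H2-D1 and B2m passed. The signs turned for H2-DMa without WT 2 (0.13) and without cKO 1 (0.11), for B2m without WT 1 (0.0066), and for the untested Ciita without WT 1 (−0.25, against 0.30 with all libraries). Without the filter on low counts, H2-Eb1 (−1.01, adjusted p 0.0296) and Cd74 (−1.29, adjusted p 0.00635) passed. The replicate numbers do not pair the samples by any label, and deviations of WT 1 and cKO 1 correlated with r = 0.026. With the replicate block, Cd74 passed (−1.36, adjusted p 0.0317), 4881 genes passed in all, and no other member's call changed. On log2(TPM + 0.1), where the median of all tested genes was 0.097, H2-DMa was at 0.24, B2m at 0.0078 and H2-Aa at −0.50. On log2(TPM + 1), with limma and with the ordinary model, they were at 0.23, 0.0078 and −0.17. With the cKO libraries summed, H2-DMa was at 0.012. Counts of genes passing were 65 in the ordinary model (4218 at an unadjusted p under 0.05), 2012 with the cKO libraries summed, 1611 by an unadjusted p under 0.05 and at least 2-fold, and 1867 to 8750 leaving out a library (8750 without WT 1, 7934 without WT 2, 1904 without cKO 1, 1867 without cKO 2). For the 7 lists, 23 genes passed, 14 by limma on log2(TPM + 0.1), 11 on log2(TPM + 1), 18 by DESeq2, 0 in the ordinary linear model (15 there at an unadjusted p under 0.05), 8 with the cKO libraries summed, and 7 to 40 leaving out a library (40 without WT 1, 37 without WT 2, 7 without cKO 1, 8 without cKO 2). The causes were not tested. The count of peaks in member genes was 10 with any overlap and 7 at a −log10 q of at least 10. The peaks lost there were both of Ciita (3.49 and 2.44) and the 3′UTR peak of H2-D1 (7.31). Depth limits H2-Aa and Ciita, at 2 to 11 counts a library.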
